A study of Nannochloropsis oceanica with 12 samples.

Results

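In the marine microalga Nannochloropsis oceanica IMET1, 154 of 9756 genes formed a set that was higher in a knockdown line of the carbonic anhydrase CA2 than in wild type at 24 h but close between the lines at 12 h. The set was chosen from the measured values themselves. For each gene, the line difference was the log2 of the mean FPKM plus 1 in the knockdown line M2 minus the same quantity in wild type (WT). FPKM counts sequenced fragments relative to transcript length and to the number of mapped fragments. Genes were taken where the line difference was at least 0.5 at 24 h and within 0.25 of 0 at 12 h, with a mean of at least 5 FPKM in any group. That level was reached by 9271 genes.

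Carbonic anhydrases interconvert CO2 and bicarbonate, and in algae they take part in the carbon-concentrating mechanism, which raises the CO2 supply around the carbon-fixing enzyme Rubisco. Nannochloropsis species are unicellular eustigmatophytes known for storing triacylglycerol oil. RNA interference lowers the transcript of a targeted gene without deleting it.

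The groups were M2 at 24 h, WT at 24 h, M2 at 12 h and WT at 12 h, counted from transfer to fresh medium, all in strain IMET1 at 25 °C, in continuous light of about 80 µmol photons per square metre and second, bubbled with 5% CO2 in air. M2 is an RNA interference knockdown line of CA2, the single such line here, with WT as its only control. Polyadenylated RNA was sequenced without strand information, so reads of a gene and of one overlapping it on the other strand are not separable. The labels give whole cells and total RNA, but also nuclear RNA as a molecule subtype. Their treatment text describes a different layout, with a CO2 level far below 5% and more time points than the samples have. The groups are therefore taken from the titles and the design text. Whole cultures were measured, so fewer cells with a transcript and less transcript per cell cannot be told apart.

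All 4 groups were labelled with 3 biological replicates, and every group was deposited as a separate table. Differences between tables and between groups therefore cannot be told apart. The set and its values rest on 10 libraries: 3 of M2 and 3 of WT at 24 h, and 2 of M2 and 2 of WT at 12 h. The last M2 12 h column was 0.723 times replicate 1, within 0.1% for 9646 of 9647 genes, and was counted with it as 1 library. WT 12 h replicate 3 stood apart, with a correlation across genes of 0.715 with its own group at most, against 0.992 or more within the other groups. It was left out by the rule, and results that change with it are given with it as well. FPKM sums were 606886 to 617319 in the 10 libraries and 780704 in WT 12 h replicate 3, and depth in reads is unknown. The IDs consist of a scaffold and a gene number, with no product, and 0 of the 154 matched the reference gene table. The knockdown of CA2 itself could not be checked, because its ID is not given, and no gene is assigned a function here.

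At 24 h the 154 genes took up 4.25% to 4.28% of all FPKM in the M2 libraries and 2.72% to 2.74% in the WT libraries. At 12 h their share was 4.94% to 4.97% in M2 and 4.53% in both WT libraries. The summed FPKM of the set was 25781 to 25987 in M2 and 16689 to 16905 in WT at 24 h, and 30174 to 30278 in M2 and 27702 to 27922 in WT at 12 h. WT at 24 h had the lowest sum of the 4 groups. Such sums mostly reflect the most abundant genes. A single gene had means of 5153 FPKM in M2 and 4378 FPKM in WT at 12 h, and of 2629 FPKM in M2 and 1144 FPKM in WT at 24 h. The sum of M2 was larger at 12 h than at 24 h, but the median of the M2 means was 23.9 FPKM at 12 h and 30.5 FPKM at 24 h.

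The line difference at 24 h ran from 0.50 to 1.20, with a median of 0.58, and the rule set its lower end. Over all 9271 genes the median was 0.01, with quartiles of -0.22 and 0.20. On the scale of FPKM plus 1, the median gene of the set was 1.5-fold higher in M2, the range was 1.41-fold to 2.30-fold, and 2 genes reached 2-fold. Differences of at least 0.6, 0.7 and 0.8 were reached by 66, 34 and 16 genes. The median of the group means was 30.5 FPKM in M2 and 19.7 FPKM in WT at 24 h, and 23.9 FPKM in both lines at 12 h.

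Many genes lay near the limits of the rule. The lowest 24 h difference inside was 0.50012 and the highest outside was 0.49965. At 12 h the values nearest the limits were 0.2447 and -0.24922 inside and 0.25152 and -0.25039 outside. The lowest qualifying level was 5.02 FPKM and the highest that failed it was 4.46 FPKM. Another 66 genes had a 24 h difference of at least 0.45 but under 0.5 and met the other criteria, while 50 genes of the set were under 0.55.

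**Figure D1:**
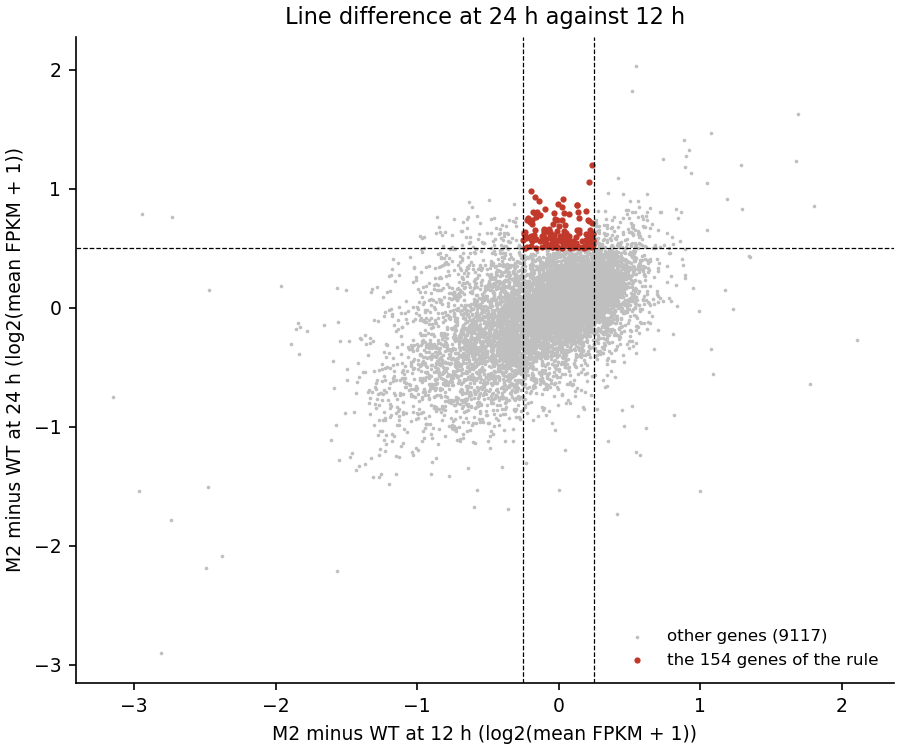
Line difference, M2 minus WT in log2(mean FPKM + 1), at 24 h (vertical axis) against 12 h (horizontal axis) for the 154 genes of the rule (red) and the other genes with at least 5 FPKM in a group (grey). Dashed lines mark the limits of 0.5 at 24 h and -0.25 and 0.25 at 12 h, and the red genes lie in the narrow column above them, most of them near its lower edge.

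In 152 of the 154 genes every M2 library lay above every WT library at 24 h, which held for 33.7% of the 9579 genes tested. In the other genes the groups overlapped: one had 5.08, 7.40 and 3.13 FPKM in M2 and 2.75, 2.78 and 3.69 FPKM in WT, and one had 10.5, 8.33 and 5.60 FPKM in M2 and 3.46, 5.19 and 7.18 FPKM in WT. In limma with Benjamini-Hochberg adjustment over all genes tested and a threshold of 0.05, 153 of the 154 genes were called higher in M2 at 24 h, against 28.4% of all genes. The last-named gene was the one not called. These counts use the contrast that chose the genes and describe them only.

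Spread between replicates in the set was close to that of all genes. The median coefficient of variation was 4.16% in M2 and 4.38% in WT at 24 h, against 4.31% and 3.94% over all genes in M2 and WT. At 12 h it was 6.27% in M2 and 3.81% in WT, against 5.17% and 4.08% over all genes. To read the line difference in libraries that took no part in choosing, the rule was repeated without the M2 and WT 24 h libraries of one replicate number. The genes chosen without replicates 1, 2 or 3 numbered 177, 158 and 148, of which 139, 138 and 125 were in the set. In the pair left out, 176, 158 and 146 of them were higher in M2, with median differences of 0.53, 0.57 and 0.57. A difference of at least 0.5 was seen in 55.9%, 69.0% and 68.9% of the chosen genes and in 4.8%, 5.35% and 5.18% of all genes in those pairs. The pairs left out came from the same group tables and the same knockdown line as the libraries that chose the genes. Correlations within the 24 h groups were about 0.996, so close agreement was to be foreseen. These counts describe how well replicates repeat each other and are no independent evidence for the line difference.

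The 12 h difference of the set had a median of 0.02 and lay between -0.25 and 0.24, with 79 genes above 0, 75 below 0 and 67 within 0.1 of 0. Limma called 27 of them higher in M2 at 12 h, against 22.4% of all genes, and 14 lower, against 33.1% (Benjamini-Hochberg adjusted). The balance depended on scaling: 40 were called higher (28.8% of all genes) and 5 lower (28.4%) with median-of-ratios scaling, and 38 higher (29.1%) and 9 lower (23.6%) with quantile normalization (limma). It turned round when M2 12 h replicate 1 was taken as the mean of its proportional columns, a setting chosen after seeing the data. Limma then called 0 higher (9.21% of all genes) and 26 lower (37.1%). An unadjusted p under 0.05 (limma) in either direction was reached by 35 of the set, against 5045 of 9578 genes. That setting moved the median 12 h difference of all genes to -0.14, against -0.04 for the columns used here. For FPKM as deposited, neither direction was called for 113 genes, so the label of a difference at 24 h only holds in the sense of the rule. M2 and WT libraries at 12 h did not overlap in 77 genes (50%), against 73.5% of all genes tested. With 2 libraries in each group this is a loose criterion. The difference itself differed between 24 h and 12 h (interaction of line and time) in 134 genes, all with the larger value at 24 h, against 22.5% of all genes, a count the rule fixes in large part. With WT 12 h replicate 3 in the fit, limma called 23 genes higher at 24 h (0.907% of all genes higher and 2.06% lower). It called 1 for the interaction (0.292% of all genes higher and 0.073% lower) and 0 at 12 h (1.16% higher and 5.25% lower). At 12 h, 5 of the set had an unadjusted p under 0.05 (limma), against 2364 of 9589 genes. The fit uses 1 estimate of spread per gene for all 4 groups. Replicate 3 thus left the fitted 24 h differences unchanged but entered their standard errors. A limma fit of the 24 h groups alone called 153 of the set higher, against 2962 of 9606 genes, in the contrast that chose them.

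The largest line difference of the set belonged to scaffold00069.g2383, which was also the most abundant transcript of all 9756 genes by its highest group mean. It had 2583, 2658 and 2646 FPKM in M2 at 24 h, against 1157, 1147 and 1128 FPKM in WT. At 12 h it had 5189 and 5118 FPKM in M2, against 4339 and 4417 FPKM in WT. In these 10 libraries M2 lay above WT at both times without overlap, and both lines had lower levels at 24 h than at 12 h. Both statements change in part with other 12 h values of the files. WT 12 h replicate 3 had 821 FPKM, below WT at 24 h. The authors' merged 12 h columns gave 2187 FPKM in M2 and 2522 FPKM in WT, so that M2 was lower than WT at 12 h. In the merged columns M2 was also lower at 12 h than at 24 h (2626 FPKM), while WT still fell with time, to 1146 FPKM. The means at 24 h were 2629 ± 39.8 FPKM in M2 and 1144 ± 14.5 FPKM in WT (SD, n = 3 each), a line difference of 1.20, and the 12 h difference of 0.23 lay just inside the limit. This gene was among those called higher in M2 at 12 h.

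The second largest line difference was that of scaffold00355.g10304, a gene of low level. It had 12.2, 16.3 and 15.98 FPKM in M2 at 24 h, against 6.04, 4.72 and 9.08 FPKM in WT. At 12 h it had 6.63 and 3.41 FPKM in M2, against 4.33 and 4.04 FPKM in WT. The lines did not overlap at 24 h and overlapped at 12 h, where the M2 libraries differed from each other more than from WT. Means at 24 h were 14.8 ± 2.31 FPKM in M2 and 6.61 ± 2.24 FPKM in WT (SD, n = 3 each), a line difference of 1.06, and the 12 h difference was 0.22. WT 12 h replicate 3 had 15.9 FPKM for this gene, within the range of M2 at 24 h.

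Both lines changed with time, and a higher level in M2 at 24 h came about in several ways. Changes from 12 h to 24 h share their libraries with the line differences, so the counts that follow describe the same values from another side. Of the 154 genes, limma (Benjamini-Hochberg adjusted) called 84 higher at 24 h than at 12 h in M2 (38.1% of all genes) and 52 lower (31.4%). In WT it called 47 higher (34.6% of all genes) and 78 lower (31.5%). As shares of the set these are 54.5% and 33.8% in M2 and 30.5% and 50.6% in WT. The median change of the set was 0.33 in M2 and -0.23 in WT, against 0.03 and 0.01 over all genes in M2 and WT. With WT 12 h replicate 3 in the fit, the calls fell to 32 higher (8.6% of all genes) and 6 lower (3.52%) in M2, and 11 higher (7.98%) and 18 lower (4.61%) in WT. Replicate 3 left the fitted changes of M2 unchanged and acted on those calls through the shared estimate of spread.

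The highest of the 4 group means was that of M2 at 24 h in 90 genes, M2 at 12 h in 47 and WT at 12 h in 17. The lowest was that of WT at 24 h in 89 genes, M2 at 12 h in 46 and WT at 12 h in 19. Over all genes of that level, M2 at 24 h was highest in 19.7% and WT at 24 h was lowest in 30.7%. M2 at 12 h was highest in 30.7% and lowest in 38.1% of them, and WT at 12 h in 19.6% and 15.7%. By the rule WT at 24 h could not be highest in the set, and M2 at 24 h could not be lowest. The counts are thus fixed in large part and only describe the set.

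**Figure D2:**
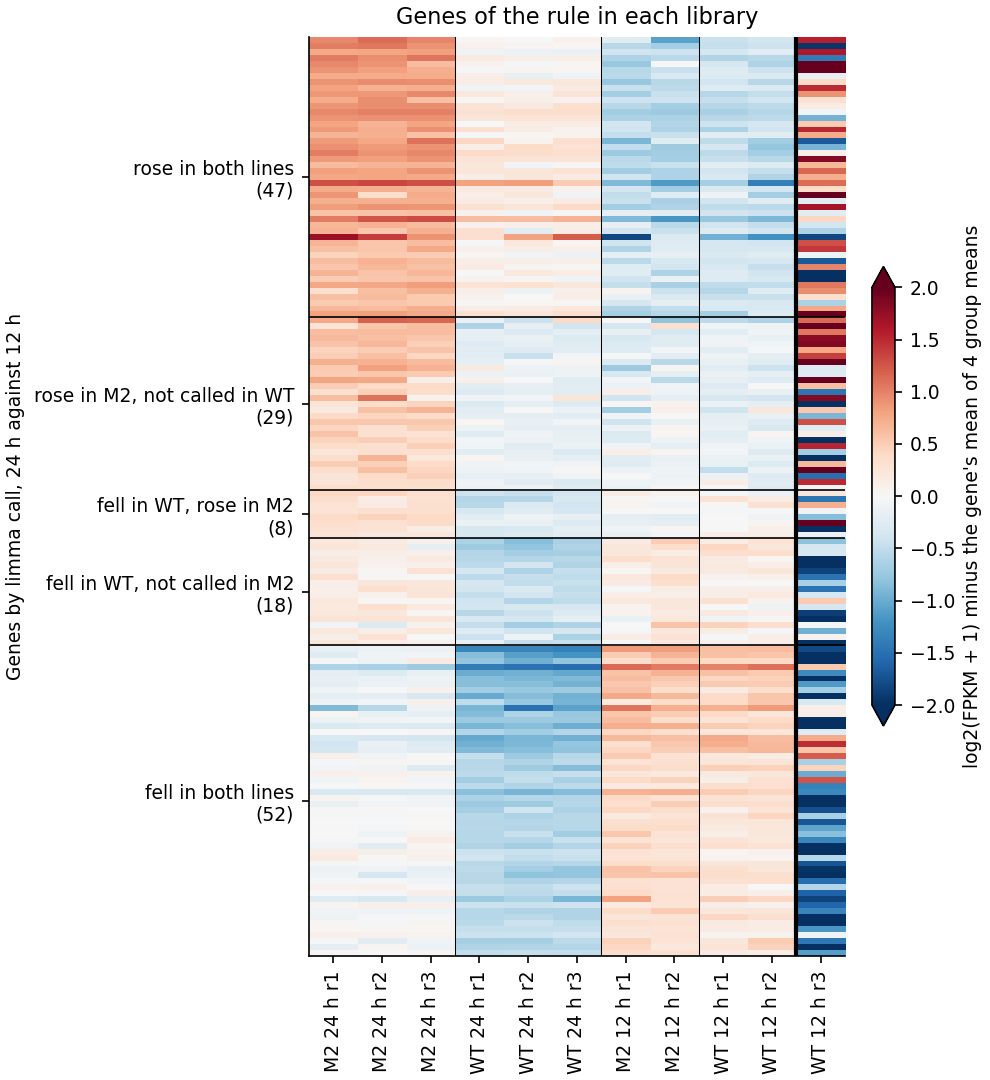
Levels of the 154 genes in each library, as log2(FPKM + 1) minus the mean of the gene's 4 group means (red higher, blue lower, colours saturate at 2), grouped by the limma calls for 24 h against 12 h in each line. M2 24 h is redder than WT 24 h in every group by the rule, and WT 12 h replicate 3, right of the thick line, differs from the other WT 12 h libraries.

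The largest group was 52 genes (33.8%, against 23.3% of all genes tested) that fell with time in both lines, less in M2. Their median group means were 39.2 FPKM in M2 and 25.9 FPKM in WT at 24 h, and 55.9 FPKM in M2 and 52.2 FPKM in WT at 12 h. Median changes with time were -0.42 in M2 and -0.94 in WT, and the interaction was called in 48 (22.5% of all genes), a count that the rule fixes in large part, as in the groups that follow. Of its genes not described by ID, that with the highest line difference had 10.2, 11.5 and 11.7 FPKM in M2 and 6.29, 5.23 and 4.75 FPKM in WT at 24 h. Its 12 h levels were 17.8 and 20.1 FPKM in M2 and 18.7 and 18.4 FPKM in WT, where the lines overlapped, and it was at 0 in WT 12 h replicate 3. Over the 52 genes, the merged M2 12 h column was below the mean of the M2 12 h replicates in 48, with a median deviation of -0.91. That deviation and the change with time in M2 share those replicates, in this group and those that follow.

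The deepest fall in WT was in scaffold00246.g6544. It had 46.8, 46.0 and 43.6 FPKM in M2 at 24 h, against 27.0, 25.5 and 24.6 FPKM in WT. At 12 h it had 160 and 151 FPKM in M2, against 146 and 157 FPKM in WT. The lines overlapped at 12 h and were apart at 24 h, where every library lay below every 12 h library. The change with time was -1.75 in M2 (SE 0.05, limma adjusted p = 2.06e-10) and -2.51 in WT (SE 0.05, limma adjusted p = 7.22e-12). Both calls held with WT 12 h replicate 3, which had 105 FPKM (limma adjusted p = 0.000355 in M2 and 4.97e-05 in WT), as did the line difference of 0.80 at 24 h (limma adjusted p = 0.0227), which chose the gene.

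Among the genes not yet described, scaffold00267.g7675 had the next deepest fall in WT, at a low level. It had 3.53, 4.66 and 6.82 FPKM in M2 at 24 h, against 3.46, 1.97 and 2.99 FPKM in WT. At 12 h it had 16.5 and 12.9 FPKM in M2, against 12.8 and 14.1 FPKM in WT. The lines were apart by less than 0.1 FPKM at 24 h, between the lowest M2 and the highest WT library, and overlapped at 12 h. The change with time was -1.42 in M2 (SE 0.22, limma adjusted p = 0.000136) and -1.94 in WT (SE 0.22, limma adjusted p = 1.19e-05), and both calls held with WT 12 h replicate 3 (limma adjusted p = 0.0195 in M2 and 0.00477 in WT). The call of its line difference at 24 h, which chose the gene, was lost with replicate 3 (limma adjusted p = 0.338). The fitted difference stayed at 0.64, and its SE rose from 0.20 to 0.28 through the spread shared by all groups. The same held for scaffold00069.g2383 (limma adjusted p = 0.371) and scaffold00355.g10304 (limma adjusted p = 0.333). For scaffold00069.g2383 the falls were -0.97 in M2 (SE 0.02, limma adjusted p = 7.14e-13) and -1.94 in WT (SE 0.02, limma adjusted p = 3.18e-15). With replicate 3, which had 821 FPKM, its calls were lost (limma adjusted p = 0.412 in M2 and 0.239 in WT), although the M2 change stayed at -0.97. In the authors' merged 12 h columns M2 was below WT in the other named genes too, with 5.09 FPKM in M2 and 7.58 FPKM in WT for scaffold00355.g10304, 89.0 and 113 FPKM in M2 and WT for scaffold00246.g6544, and 5.86 and 9.63 FPKM in M2 and WT for scaffold00267.g7675.

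**Figure D3:**
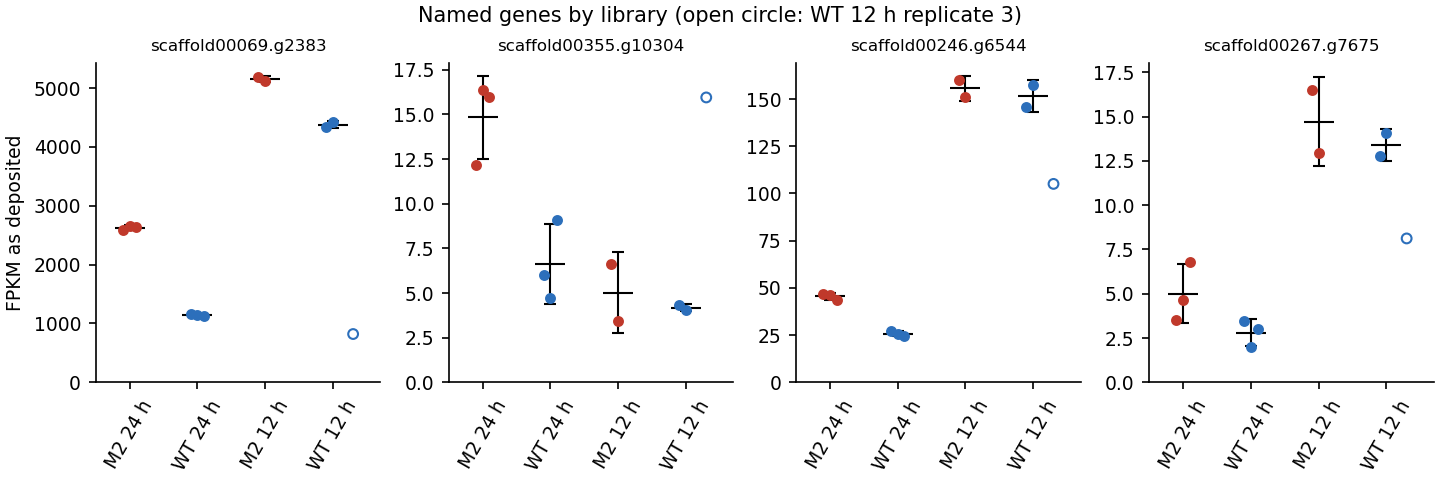
FPKM as deposited of the 4 genes described by ID, by group (M2 red, WT blue), with 1 point per library and the mean ± SD in black. Open circles are WT 12 h replicate 3, which enters no mean, at 821, 15.9, 105 and 8.12 FPKM for scaffold00069.g2383, scaffold00355.g10304, scaffold00246.g6544 and scaffold00267.g7675.

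The next group was 47 genes (30.5%, against 27.0% of all genes) that rose with time in both lines, more in M2. Their median group means were 36.4 FPKM in M2 and 20.8 FPKM in WT at 24 h, and 15.7 FPKM in M2 and 16.6 FPKM in WT at 12 h. Median changes with time were 1.24 in M2 and 0.50 in WT, and the interaction was called in 41 (22.5% of all genes). The gene of this group with the highest line difference had 34.8, 38.8 and 35.4 FPKM in M2 and 17.9, 17.2 and 18.5 FPKM in WT at 24 h. It had 14.5 and 7.80 FPKM in M2 and 12.6 and 13.3 FPKM in WT at 12 h. Every M2 24 h library was above every other of the 10 libraries, and at 12 h the M2 libraries lay on either side of WT. However, WT 12 h replicate 3 had 53.0 FPKM and the merged M2 12 h column 50.2 FPKM, both above all M2 24 h libraries, and merged WT 12 h had 24.7 FPKM. Over the 47 genes, merged M2 12 h was above the mean of the M2 12 h replicates in 44, by a median of 0.99. The size of the rise in M2 thus depends on which 12 h columns are taken.

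In 29 genes (18.8%, against 9.67% of all genes) only M2 was called, with a rise. Group medians were 15.3 FPKM in M2 and 9.91 FPKM in WT at 24 h, and 10.9 FPKM in M2 and 9.69 FPKM in WT at 12 h. Their median level was the lowest of these groups, and the difference between the lines' time changes, tested as the interaction, was called in 21 (22.5% of all genes). One of them was scaffold00355.g10304, with a change of 1.44 in M2 (SE 0.25, limma adjusted p = 0.000325) and 0.52 in WT (SE 0.25, limma adjusted p = 0.0897), and no call for the interaction (limma adjusted p = 0.0631). Its call in M2 was lost with WT 12 h replicate 3 (limma adjusted p = 0.125), although the M2 change stayed at 1.44. Over the 29 genes, merged M2 12 h was above the mean of the M2 12 h replicates in 20, with a median deviation of 0.71 over all 29.

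A fall in WT alone was called in 18 genes (11.7%, against 6.83%), with group medians of 23.1 FPKM in M2 and 14.8 FPKM in WT at 24 h, and 23.8 FPKM in M2 and 24.5 FPKM in WT at 12 h. The interaction was called in 16 (22.5% of all genes). The gene of this group with the highest line difference had 46.6, 45.1 and 42.4 FPKM in M2 and 25.4, 21.8 and 25.1 FPKM in WT at 24 h. It had 44.9 and 57.6 FPKM in M2 and 44.2 and 49.4 FPKM in WT at 12 h. Among the 10 libraries those of WT at 24 h stood apart from the other 3 groups, which overlapped one another, but WT 12 h replicate 3, at 22.1 FPKM, lay within the range of WT at 24 h. In the last 8 genes (5.19%, against 1.36%) the lines went in opposite directions, up in M2 and down in WT, with median changes of 0.29 in M2 and -0.33 in WT. The interaction was called in all 8 (22.5% of all genes, and the only call of the set with WT 12 h replicate 3 was in the group of 29). The gene with the highest line difference among them had 29.5, 29.7 and 27.7 FPKM in M2 and 16.1, 15.5 and 16.4 FPKM in WT at 24 h, and 24.3 and 23.1 FPKM in M2 and 21.1 and 20.0 FPKM in WT at 12 h, with 25.7 FPKM in WT 12 h replicate 3. No gene of the set (0) rose in WT without a rise called in M2, a count that the rule fixes in large part. Of all genes tested, 6.51% rose in WT with no call in M2, and 1.1% rose in WT and fell in M2. The shares of these groups depend on WT 12 h replicate 3: with it, they held 6, 11, 21, 12 and 0 genes in the order given, and neither line was called in 104.

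**Figure D4:**
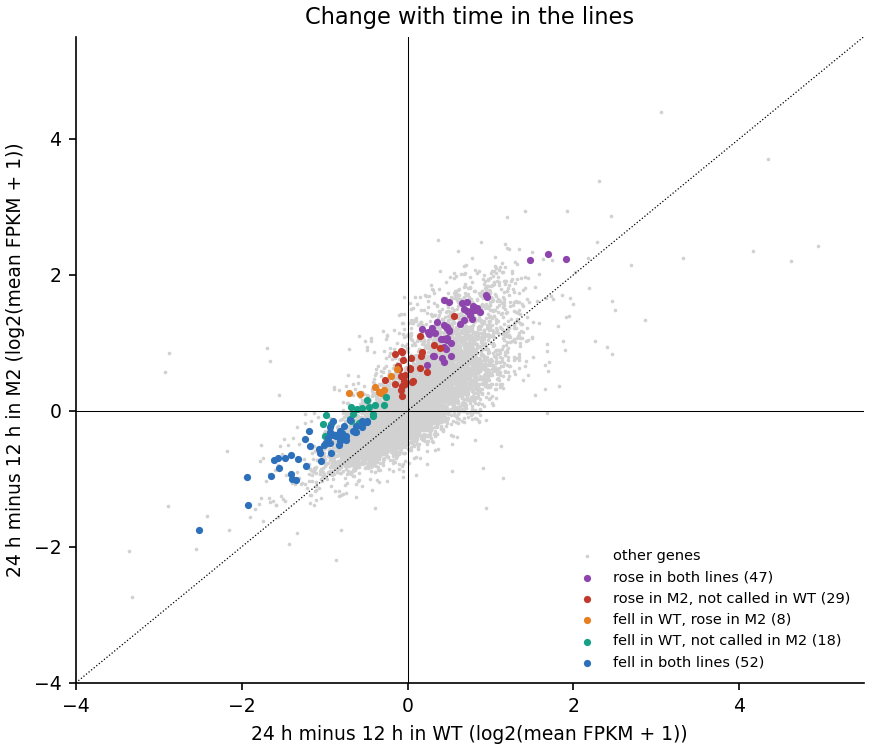
Change with time, 24 h minus 12 h in log2(mean FPKM + 1), in M2 (vertical axis) and in WT (horizontal axis), for the 154 genes coloured by the limma calls in each line and for other genes with at least 5 FPKM in a group (grey). The dotted line marks equal change in both lines, and the coloured genes lie above it by the rule, spread from falls to rises.

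The set held some of the most abundant transcripts. Its median highest group mean, 35.3 FPKM, was close to the 32.3 FPKM of all genes, but 10 genes (6.49%) reached 1000 FPKM, against 110 of the 9271 genes (1.19%). Of these 10, 9 fell with time in both lines, and among all 110 genes of that level 49 fell in M2 and 53 in WT. Their mean levels at 24 h ran from 956 to 3075 FPKM in M2 and from 642 to 2110 FPKM in WT, with line differences of 0.51 to 1.20 and a median of 0.55. At 12 h they ran from 393 to 5153 FPKM in M2 and from 422 to 4378 FPKM in WT. The median change with time was -0.34 in M2 and -0.80 in WT. All 10 were lower in WT 12 h replicate 3 than in the other WT 12 h libraries, as were 92 of the 110 genes and 62.9% of all genes of the level required.

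The set was next compared with genes that shared its 24 h limit but not its 12 h limit, and with its mirror image. Of 396 genes with a 24 h difference of at least 0.5 and the required level, 162 also had a 12 h difference above 0.25, and 80 had one below -0.25. The mirror image, at most -0.5 at 24 h and within 0.25 at 12 h, held 140 genes. A fall with time was called in 33.8% of the set in M2 and 50.6% in WT, and in 78.4% in M2 and 82.1% in WT of the 162 genes. A rise was called in 54.5% in M2 and 30.5% in WT of the set, in 90.0% in M2 and 50% in WT of the 80 genes, and in 57.1% in M2 and 90.0% in WT of the mirror image. All of these sets were defined by the same libraries, so these shares were not tested against each other.

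Gene numbers were used to ask whether genes of the set lie next to each other, which the rule did not use. Neighbouring numbers on a scaffold are taken as neighbouring genes, which the files do not state. Of the 154 genes, 24 (15.6%) had another gene of the set at the next number, and 2.72% of all genes of that level had one. The same share was 14.2% in the 162 genes, 10% in the 80 and 10% in the mirror image, each counted within itself. A neighbour within 5 numbers was found for 21.4% of the set, 21.6%, 27.5% and 21.4% of those sets and 11.9% of all genes beside the set. Genes next to the set but outside it (228) had a median 24 h difference of 0.06, and 5.26% of them reached 0.5, against 0.01 and 2.65% in all other genes. The set was spread over 47 scaffolds, with the most, 16 genes of 553, on scaffold00009. In an unstranded library, a neighbour whose transcript overlaps can share reads, so neighbours need not be independent.

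In 4 places at least 3 genes of the set lay within 3 numbers of each other, with 15 genes in all. On scaffold00214, 4 genes numbered 6310 to 6315 had low and similar levels in the 10 libraries. Their means were 6.71 to 12.6 FPKM in M2 and 4.13 to 7.13 FPKM in WT at 24 h, and 3.41 to 7.86 FPKM in M2 and 3.58 to 7.71 FPKM in WT at 12 h. Other 12 h values were higher, with 12.0 to 23.7 FPKM in WT 12 h replicate 3 and 23.7 to 40.0 FPKM in the authors' merged M2 12 h column. On scaffold00095, 4 genes numbered 3387 to 3391 did not share a course with time in the 10 libraries, with changes of -0.93 to 1.46 in M2 and -1.61 to 0.71 in WT. The merged M2 12 h column gave them 10.9 to 58.4 FPKM, beside M2 24 h means of 11.1 to 62.3 FPKM. The other places were both on scaffold00295, with 4 genes numbered 8697 to 8701 and 3 numbered 8707 to 8710. They held 36.4 to 86.3 and 21.3 to 79.0 FPKM in M2, and 17.9 to 57.4 and 11.9 to 41.9 FPKM in WT, at 24 h. In the 10 libraries all 7 had higher means at 24 h than at 12 h in both lines, by 1.10 to 2.31 in M2 and 0.15 to 1.70 in WT. Other 12 h values were higher. The M2 12 h means were 7.56 to 33.7 FPKM, but the authors' merged M2 12 h column gave 23.5 to 150 FPKM and was above the mean in all 7. The gene at 150 FPKM had a mean of 79.0 FPKM in M2 at 24 h. WT 12 h replicate 3 had 22.1 to 191 FPKM and was also above the WT 12 h mean in all 7.

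The stretch around these genes was chosen after its values were seen, and no test was made of it. On scaffold00295, 32 genes in a row with the required level, numbered 8683 to 8716, all had higher levels in M2 than in WT at 24 h, by 0.15 to 0.98 with a median of 0.53. This was the longest such row in the files, where the next longest held 19 genes and the median row 2. It held 8 genes of the set, with mean levels of 7.48 to 86.3 FPKM in M2 and 4.94 to 57.4 FPKM in WT at 24 h. Among the 32, 18 reached 0.5 at 24 h, and limma called 26 higher (28.4% of all genes). With WT 12 h replicate 3 in the fit, which changes only the spread here, it called 1 higher (0.907% of all genes). At 12 h the row had a median difference of -0.40 with 28 genes below 0, and 17 were called lower in M2 (33.1% of all genes). Beside the 8, 9 of the 18 genes missed the rule because M2 was lower by more than 0.25 at 12 h. Levels rose with time in 29 of the 32 genes in M2 (38.1% of all genes) and in 16 in WT (34.6%), by limma calls. With WT 12 h replicate 3 in the fit these were 4 in M2 (8.6% of all genes) and 1 in WT (7.98%). In that fit 0 were called lower in M2 at 12 h (5.25% of all genes). At an unadjusted p under 0.05 (limma) 11 were lower, against 2364 of 9589 genes in either direction. WT 12 h replicate 3 was higher than the other WT 12 h libraries in 26 of the 32, while its median deviation over all genes was -0.48. The authors' merged M2 12 h column was higher than the M2 12 h mean in 28 of the 32, with a median deviation of -0.39 over all genes. The level of M2 at 12 h, and with it the size of its rise with time, thus depends on which 12 h columns are taken.

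**Figure D5:**
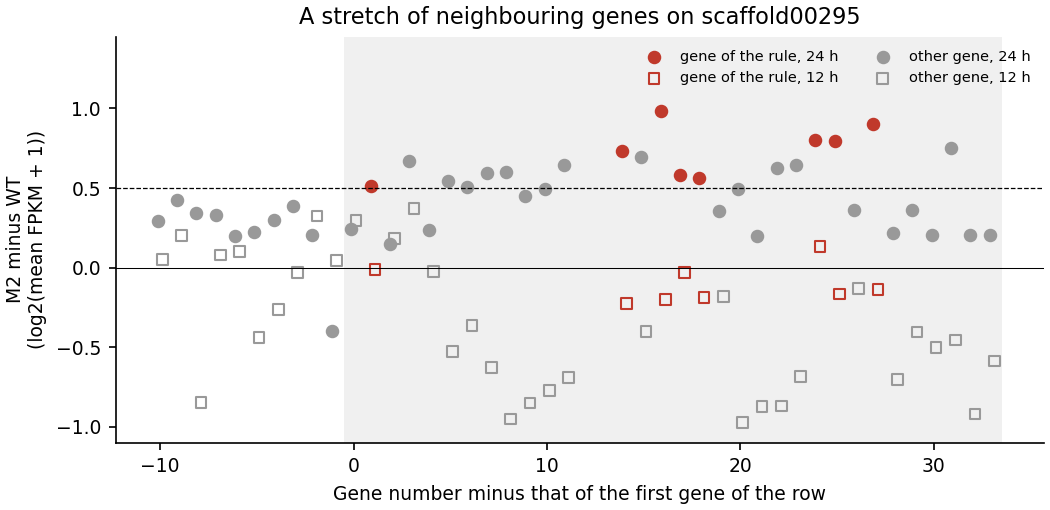
Line difference, M2 minus WT in log2(mean FPKM + 1), at 24 h (filled circles) and 12 h (open squares) for neighbouring genes on scaffold00295, by gene number counted from the first gene of the row of 32 (shaded), with genes of the set in red. Every filled circle in the shaded row lies above 0, while the open squares of most grey genes lie below 0. Those of the red genes lie within 0.25 of 0 by the rule.

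Values that the rule did not use differed from those it did. WT 12 h replicate 3 was within 0.25 of the mean of replicates 1 and 2 (log2 of FPKM plus 1) in 18 of the 154 genes (11.7%), against 13.8% of all genes. It was higher by at least 1 in 37 (24.0%, against 15.8%) and lower by at least 1 in 58 (37.7%, against 33.0%), and 12 genes were at 0. This deviation and the change with time in WT share the subtracted WT 12 h replicates 1 and 2, so the counts that follow only describe these libraries. In genes that fell in both lines replicate 3 was lower than the mean of the other WT 12 h libraries in 48 of 52 of the set, with a median of -1.70, and in 84.4% of all genes with those calls, with a median of -0.93. In genes that rose in both lines it was lower in 11 of 47 of the set, with a median of 0.90, and in 41.4% of all genes with those calls, with a median of 0.33. In the merged M2 12 h column made by the authors, a pooled value with no replicates, the 12 h line difference of the set against the merged WT column had a median of 0.19. It lay within 0.25 of 0 in 61 genes (39.6%, against 44.8% of all genes), above that in 72 (46.8%, against 28.4%) and below in 21 (13.6%, against 26.9%). Whether the merged columns or the replicate columns reflect the cultures at 12 h cannot be told apart with these files. At 24 h the merged columns gave the set line differences of 0.50 to 1.20, as the replicates did.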

How the data were processed

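The authors deposited FPKM values for 9756 genes, with 1 table for each group and 2 more in which replicates were merged. The submitters' processing notes name TopHat2 2.0.4 and Cufflinks 2.0.2. The genome build, the annotation and any normalization across tables were not given in the sources used here. In the M2 24 h table the column names say MT, and its link to that group assigned it. No column of another series was found (0).

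Genes were chosen on FPKM as deposited, with the rule stated in the report. The genes, lists, comparisons and rules were chosen with earlier results of these data known. The 9579 genes that averaged at least 1 FPKM over the 10 libraries were tested on log2(FPKM + 1), which understates changes of low genes, in limma 3.58.1 (R 4.3.3), with 1 mean per group, an intensity trend, 2-sided tests and Benjamini-Hochberg adjustment in each of 5 comparisons, and a threshold of 0.05. The fit drops WT 12 h replicate 3, and with it 11 libraries and 9589 genes were fitted. All 4 groups share 1 estimate of spread per gene, so replicate 3 also alters the standard errors of comparisons without it. The fit was tested on simulated data. P-values measure the spread between biological replicates within a group, as labelled. Changes with time of the described genes are fitted means of log2 values, and other differences are log2 of group means.

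Named genes were the 2 with the highest 24 h line difference and, of the rest, the 2 with the most negative time change in WT. Pathway lists by product name could not be applied, and no sequences were used. Alternatives covered pseudocounts of 0.1 and 5, level minimums, scalings, filters, moderation, a replicate block, each library left out, merged columns, a minimum fold of 2 and, chosen after seeing the data, M2 12 h replicate 1 as the mean of its proportional columns. Python 3.11.15, numpy 2.4.6, pandas 2.3.3, scipy 1.17.1 and matplotlib 3.10.9 made tables and figures.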

Additional observations from a re-analysis of the deposited data

Results flagged for a closer look

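WT 12 h replicate 3 was outside the libraries that chose the genes. Over the 154 genes its median absolute log2 difference from the mean of replicates 1 and 2 was 1.33, against 0.969 over all genes and 0.0731 between replicates 1 and 2 for the 154 genes. The authors' merged M2 12 h column differed from the mean of the M2 12 h replicates by a median of 0.818, against 0.653 over all genes and 0.123 between those replicates. The merged columns at 24 h differed from their replicates by 0.00141 in M2 and 0.00231 in WT. The cause was not tested.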

How the results depend on the processing

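The number of genes chosen was 98 with a pseudocount of 5 (84 shared with the set) and 58 with WT 12 h replicate 3 (38 shared). The other settings gave counts within 1.5 times of 154, but the merged columns gave 148 genes of which only 59 were shared. The median 24 h difference of the fixed 154 genes was 0.61 with a pseudocount of 0.1 or with median-of-ratios scaling, 0.51 with a pseudocount of 5, and 0.58 to 0.59 with libraries left out. Leaving out 1 library gave 135 to 162 genes, and leaving out both 24 h libraries of a number gave 148 to 177. Calls are given for 24 h, 12 h, the interaction, time in WT and time in M2, where the counts were 153, 41, 134, 125 and 136. With WT 12 h replicate 3 they were 23, 0, 1, 29 and 38 (limma), with the shares over all genes given above. At 12 h in that fit, 5 of the set had an unadjusted p under 0.05 (limma), against 2364 of 9589 genes. At least 2-fold they were 2, 0, 3, 25 and 46, fewer by construction (limma, with 0 at an unadjusted p under 0.05 at 12 h). Over all 9579 genes, the higher calls of at least 2-fold were 17, 18, 192, 369 and 831. The lower calls were 99, 277, 29, 152 and 75. Without 1 library the counts of the set were 149 to 153, 33 to 45, 123 to 132, 117 to 128 and 130 to 136. At 12 h, a fit of the compared groups gave 24, where 1568 of 9513 genes were higher and 2424 lower. M2 replicate 1 as the mean of its proportional columns gave 26, all lower in M2, where 882 of 9578 genes were higher and 3558 lower. The fit used here gave 27 of the set higher and 14 lower. With the replicate number as a block the counts of the set were 152, 38, 135, 120 and 133. Over all 9579 genes, 2658, 2059, 2035, 3183 and 3521 were higher and 2647, 3084, 1205, 2908 and 2896 lower in that fit. However, same-numbered deviations correlated at -0.0332 to 0.0101, so the numbers do not pair the samples. The interaction was not run in the compared groups alone, since it needs all 4. The cause of the other differences was not tested. Unknown depth limits what low genes can show.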
